A study of Mus musculus with 4 samples.

Results

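The 10 genes described here encode enzymes that build serine (Phgdh, Psat1, Psph), one-carbon units on folate (Shmt1, Shmt2, Mthfd2, Mthfd1l), proline (Aldh18a1, Pycr1) and asparagine (Asns). They were selected by symbol, and all 10 were found among the 32285 genes of each count matrix. The clearest differences between genotypes were in Müller glia, the supporting glia that reach across all retinal layers, where Mthfd2 was about 10.2-fold and Aldh18a1 about 4.05-fold higher in NLGF than in wild-type (WT) retina. The other members tested in these cells did not pass the threshold, and no member passed it in any other retinal class tested.

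Serine is made from the glycolytic intermediate 3-phosphoglycerate, in a chain that Phgdh opens, Psat1 continues with a transamination and Psph closes by removing the phosphate. Serine then donates a one-carbon unit to folate and becomes glycine, in the cytosol and in mitochondria by separate enzymes, and the mitochondrial branch exports formate for nucleotide synthesis and methylation. Proline is made from glutamate, and asparagine from aspartate with glutamine as nitrogen donor. Many of these genes are known targets of the transcription factor ATF4 in cells short of amino acids or under stress. In the nervous system serine synthesis is known to be largely glial.

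Single-cell RNA-seq libraries (10x Genomics, droplet-based) were made from whole retina of 1 NLGF female, 1 NLGF male, 1 WT female and 1 WT male, each at 30 days of age, with 1 retina and 1 library per mouse. The NLGF line is known as a knock-in that places mutated amyloid beta sequence in the mouse's own App gene, so no transgene promoter is involved; the labels name the line only, and give no strain or litter. By its title, the study is about endoplasmic reticulum stress in Müller glia ahead of amyloid pathology, and the question here is what the synthesis genes did at this early age and in which cells. With 2 mice per genotype, of opposite sex, the spread within a genotype holds animal, sex and preparation differences together.

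After filtering, 7155 (NLGF female), 7963 (NLGF male), 8092 (WT female) and 8117 (WT male) cells remained, with medians of 892.5 to 1105 unique molecular identifiers (UMIs) per cell. Between 17 and 34 cell barcodes were shared by each pair of libraries. App had 204 and 235 counts per 1000000 UMIs (CPM) in the NLGF female and male, and 242 and 237 CPM in the WT female and male, over all cells, which does not tell the edited allele from the unedited one. Cells fell into 21 clusters that were named from marker genes, and the comparisons used 7 classes, each with at least 10 cells in every library. The Müller-like class, called Müller glia below, had 416 and 386 cells in the NLGF female and male and 257 and 381 cells in the WT female and male. It joined a deep cluster of 728 cells (median 9413.5 UMIs) with a shallow one of 712 cells (median 807 UMIs). Its 12 Müller markers summed to 42230 and 42690 CPM in NLGF and to 42410 and 41650 CPM in WT. Its 9 rod markers summed to 2656 to 2851 CPM in NLGF and 2578 to 3098 CPM in WT. The 8 astrocyte markers summed to 983.5 and 1025 CPM in NLGF, and to 1732 (female) and 972.9 CPM (male) in WT, so the WT female stood apart there. The 7 retinal pigment epithelium markers summed to 19.3 (female) and 133.1 CPM (male) in NLGF, and to 18.42 (female) and 322.8 CPM (male) in WT. Both males were above both females there, with the WT male highest.

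Levels by class are CPM of the UMIs summed over all cells of a class in a library, and are compared within a gene only. Among the 7 classes tested, the serine chain had its highest levels in Müller glia. Phgdh (GRCm38 chromosome 3, 98313170 to 98339990, minus strand), the enzyme that commits 3-phosphoglycerate to serine, averaged 33.5 ± 11.6 CPM in Müller glia (SD, n = 4 libraries). The next class, amacrine cells, averaged 1.15 ± 0.803 CPM, and the lowest Müller library (23.8 CPM) lay above every library of every other class tested. Rod bipolar cells had no Phgdh UMI in any library. Microglia-like cells (12 to 29 per library) were not among the classes tested. They had 0 and 1 Phgdh UMI in the NLGF female and male (0 and 35.4 CPM), and 3 in each WT library (46.4 and 37.7 CPM), which in WT is above Müller glia but rests on these few UMIs.

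Psat1 (chromosome 19, 15904678 to 15947337, minus strand), the aminotransferase of the chain, averaged 95.9 ± 12.7 CPM in Müller glia and 10.8 ± 1.79 CPM in amacrine cells, with the 5 other classes at means of 0.698 to 3.44 CPM. Amacrine libraries (8.40 to 12.6 CPM) did not overlap the next class either. Psph (chromosome 5, 129765558 to 129787449, minus strand), the phosphatase, averaged 163 ± 20.5 CPM in Müller glia. It was less restricted than the upstream enzymes, since the other classes averaged 13.3 to 24.2 CPM and most of them overlapped each other.

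The class order differed for the one-carbon genes. Shmt1 (chromosome 11, 60788104 to 60811718, minus strand), the cytosolic serine hydroxymethyltransferase, was near the limit of detection, with 2.15 ± 0.679 CPM in amacrine cells and 1.36 ± 0.622 CPM in Müller glia, whose libraries overlapped. Shmt2 (chromosome 10, 127517123 to 127522444, minus strand), the mitochondrial counterpart, averaged 18.6 ± 3.85 CPM in Müller glia, 11.2 ± 2.59 CPM in cone bipolar cells and 9.91 ± 0.548 CPM in rods, and no neighbours in its order were clear of each other. Horizontal cells, with too few cells to test, had 40.0 and 51.0 CPM of Shmt2 in the NLGF female and male and 52.9 and 46.7 CPM in the WT female and male.

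Mthfd1l (chromosome 10, 3973118 to 4167081, plus strand), which releases formate in mitochondria, had a neuronal order. It averaged 12.6 ± 3.21 CPM in cone bipolar cells, 8.16 ± 1.02 CPM in rod bipolar cells and 5.31 ± 1.38 CPM in amacrine cells, each class clear of the next, and averaged 1.41 ± 0.930 CPM in Müller glia. That mean joins 1.93 and 2.44 CPM in NLGF with 0.768 and 0.486 CPM in WT Müller glia, against 1.36 and 2.14 CPM in NLGF rods and 1.95 and 1.85 CPM in WT rods. Asns (chromosome 6, 7675169 to 7693254, minus strand), which makes asparagine, was also neuronal. Cones, amacrine cells, rod bipolar cells and cone bipolar cells averaged 32.5 ± 6.73, 28.4 ± 4.31, 26.1 ± 5.50 and 22.8 ± 4.30 CPM of Asns and overlapped one another, while rods (5.41 ± 1.89 CPM) and Müller glia (2.61 ± 2.23 CPM) lay below all of them. The serine chain and asparagine synthesis therefore had their highest levels in different classes among those tested, in both genotypes.

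Aldh18a1 (chromosome 19, 40550257 to 40588463, minus strand), which opens proline synthesis from glutamate, and Mthfd2 (chromosome 6, 83305691 to 83325908, minus strand), the mitochondrial methylenetetrahydrofolate dehydrogenase, were spread evenly over neurons, with class means of 5.03 to 6.57 CPM and 5.77 to 8.45 CPM from rods to amacrine cells. Their place in Müller glia depended on genotype and is given below. Pycr1 (chromosome 11, 120635712 to 120643769, minus strand), which closes proline synthesis in mitochondria, had at most 7 UMIs in any class of any library.

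**Figure D1:**
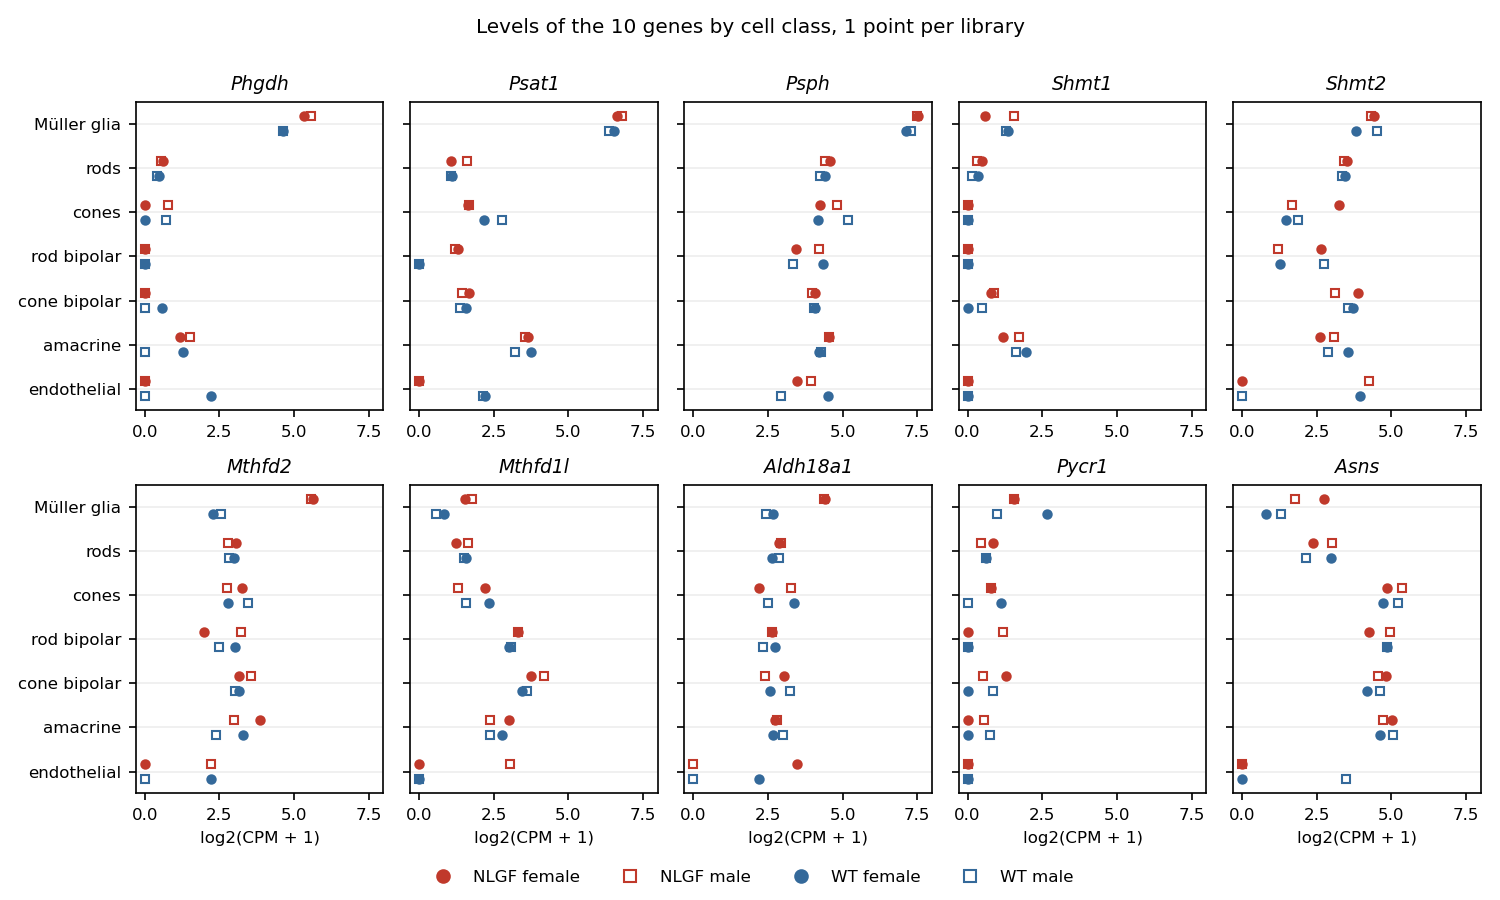
Level of each of the 10 genes, as log2(CPM + 1) on the x axis, in 7 cell classes on the y axis, with 1 point per library and NLGF points above WT points. Phgdh, Psat1 and Psph stand apart in Müller glia in all 4 libraries. Asns is high in cones, bipolar and amacrine cells, and Mthfd1l in bipolar and amacrine cells. Mthfd2 and Aldh18a1 are high in Müller glia of the NLGF libraries.

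The share of a gene's UMIs that came from Müller glia shows the same split. Müller glia held 12.2% and 10.3% of all UMIs in the NLGF female and male, and 7.02% and 9.85% in the WT female and male. They held 92.1% and 89.7% of Phgdh UMIs in NLGF, and 72.1% and 87.5% in WT. For Mthfd2 these shares were 45.0% and 43.2% in NLGF, and 4.10% and 7.75% in WT, and for Aldh18a1 they were 32.1% and 26.1% in NLGF, and 6.48% and 7.09% in WT. Rods held 24.3% and 22.5% of Mthfd2 UMIs in NLGF, and 43.4% in each WT library. Of Asns UMIs, Müller glia held 4.38% and 1.41% in NLGF, and 0.325% and 0.958% in WT.

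The first comparison was NLGF against WT within Müller glia, tested with edgeR's quasi-likelihood model on the sums per library. Of the 10 members, 6 had enough counts to be tested, 2 were higher in NLGF at an adjusted p of at most 0.05, and 0 were lower. Over all genes tested in the class, 1.00% were called in either direction, 0.556% higher and 0.449% lower. All 6 log2 fold changes lay above 0, with a median of 0.53, against a median of 0.003 over the 11146 genes tested, and 4 of the 6 had an unadjusted p under 0.05, against 10.4% of all genes tested, as a description of the genes that could be measured. The 4 members that failed the filter on low counts are given by their counts below and are no part of these figures. Mthfd2 and Aldh18a1, with 5 to 10 UMIs in each WT library, passed this filter through their NLGF libraries. A gene this low in WT is tested only when it is high in NLGF, so their sign was nearly fixed. The list was also chosen with earlier results of these data known, so these figures are no test of it.

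Mthfd2 gave the largest change of the list. It had 100 and 96 UMIs in Müller glia of the NLGF female and male, and 5 and 10 UMIs in the WT female and male. These were 48.3 and 46.8 CPM in NLGF and 3.84 and 4.86 CPM in WT. Both NLGF libraries were far above both WT libraries, and the 2 sexes of a genotype lay close together. This gave a log2 fold change of 3.35 ± 0.28 (SE, with 2 libraries per genotype; edgeR adjusted p = 2.77e-06). In WT, Müller glia were below the WT rods in Mthfd2 (6.88 and 6.11 CPM), whereas in NLGF they were above every other class.

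Aldh18a1 rose as well. It had 42 and 41 UMIs in NLGF Müller glia (20.27 and 19.99 CPM), and 7 and 9 UMIs in WT Müller glia (5.37 and 4.38 CPM), so the groups did not overlap. Its log2 fold change was 2.02 ± 0.34 (SE, edgeR adjusted p = 0.00597). That call was lost without the NLGF female (edgeR adjusted p = 0.0704), without the NLGF male (0.0654) and with DESeq2 (0.121), at log2 fold changes of 2.001 to 2.031. The Mthfd2 call held in every setting in which it was tested.

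Phgdh had 82 and 96 UMIs in NLGF Müller glia (39.6 and 46.8 CPM), and 31 and 49 UMIs in WT Müller glia (23.8 CPM in both). The groups did not overlap, but the log2 fold change of 0.81 ± 0.20 missed the threshold (edgeR adjusted p = 0.0671). With genotype as the only term it passed with doublets kept (0.0228), with counts thinned to the smallest library (0.045) and in the deep cluster alone (0.0292). It was far from the threshold with DESeq2 (adjusted p = 1.0) and without the NLGF male (edgeR adjusted p = 0.576).

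Psat1 had 205 and 229 UMIs in NLGF (98.9 and 112 CPM), and 119 and 168 UMIs in WT (91.3 and 81.7 CPM). Psph had 376 and 365 UMIs in NLGF (182 and 178 CPM), and 180 and 317 UMIs in WT (138 and 154 CPM). For both genes the groups did not overlap, and the log2 fold changes of 0.25 ± 0.12 for Psat1 (edgeR adjusted p = 0.498) and 0.25 ± 0.10 for Psph (edgeR adjusted p = 0.345) did not pass. Within the chain the difference between genotypes was larger for the first enzyme than for both later ones, although these genes were not tested against each other.

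Shmt2 had 42 and 39 UMIs in NLGF (20.3 and 19.0 CPM), and 17 and 45 UMIs in WT (13.1 and 21.9 CPM). The WT male was the highest library and the WT female the lowest, so the groups overlapped, with a log2 fold change of 0.07 ± 0.28 (edgeR adjusted p = 0.968), which was −0.20 without the WT female and 0.55 without the WT male. In Müller glia Mthfd2 thus differed between genotypes while Shmt2, the step before it, gave no detectable difference at this depth. The Mthfd2-like gene Mthfd2l, from the neighbouring pathway lists read below, had 105.7 and 110.7 CPM in NLGF, and 106.7 and 103.6 CPM in WT. Its log2 fold change was 0.001 ± 0.111 (edgeR adjusted p = 0.999). The change of Mthfd2 is that gene's own, and the level of its step as a whole was not tested.

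The remaining members had too few UMIs in Müller glia to be tested. Asns had 12 and 5 UMIs in NLGF, and 1 and 3 in WT, a ratio of rates of 3.46 with an exact 95% interval of 1.13 to 14.1. Mthfd1l had 4 and 5 UMIs in NLGF, and 1 in each WT library, a ratio of 3.67 (0.759 to 34.9). The libraries of the 2 genotypes did not overlap for either gene. Shmt1 had 1 and 4 UMIs in NLGF, and 2 and 3 in WT (ratio 0.815, 0.188 to 3.54), and Pycr1 had 4 and 4 in NLGF, and 7 and 2 in WT (ratio 0.724, 0.243 to 2.12). These intervals cover counting error only, and span both directions for all but Asns. For Pycr1, the last step of proline synthesis, no difference was detectable at this depth beside the rise of Aldh18a1, the first step.

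**Figure D2:**
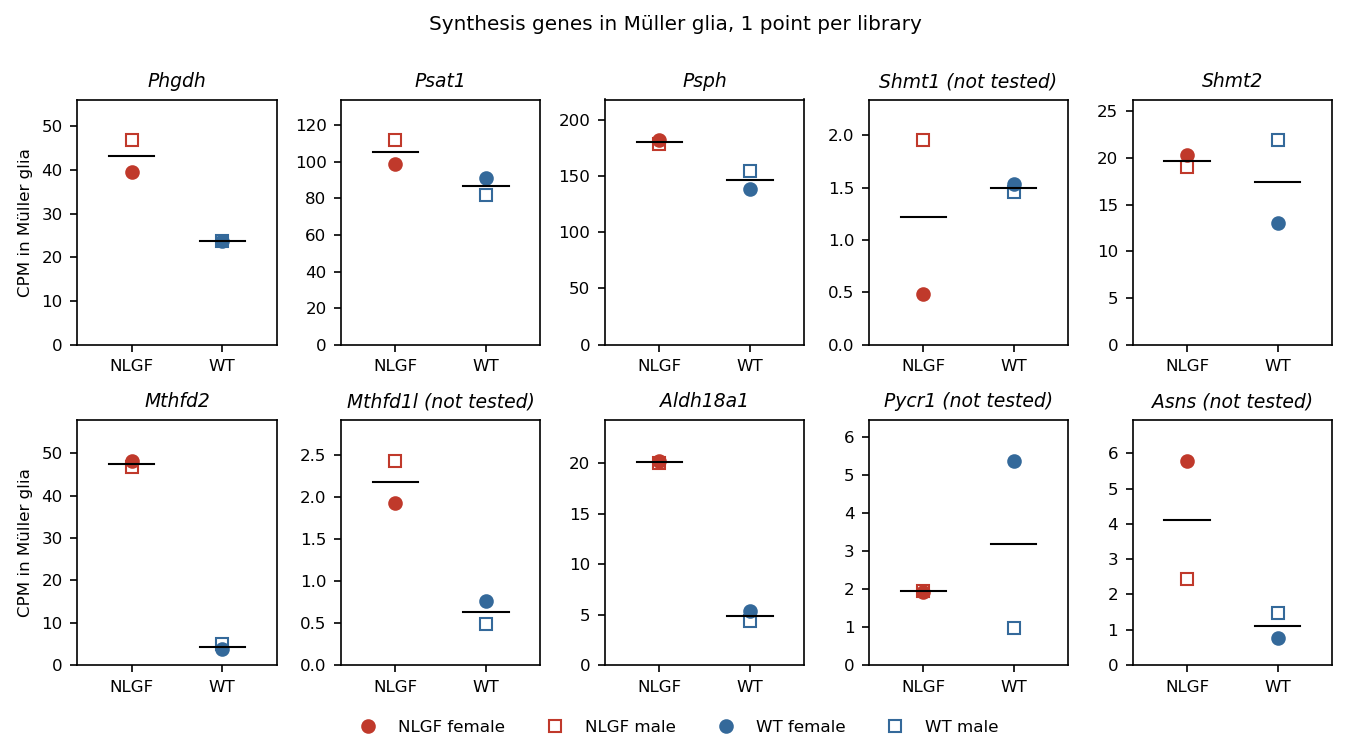
CPM of each gene in Müller glia on the y axis, with NLGF libraries at the left and WT libraries at the right, filled circles for females, open squares for males and a line at the mean of each genotype. Mthfd2 and Aldh18a1 lie at 46.8 to 48.3 and 19.99 to 20.27 CPM in NLGF, against 3.84 to 4.86 and 4.38 to 5.37 CPM in WT, and each panel has its own y axis.

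Parts of the Müller class were then taken alone. In the deep cluster Mthfd2 had 51.4 and 51.2 CPM in NLGF, and 4.26 and 5.42 CPM in WT, a log2 fold change of 3.30 (edgeR adjusted p = 1.45e-08). In the shallow cluster it had 5 and 3 UMIs in NLGF and 0 in both WT libraries, too few for a test. Astrocyte-marker cells were those with UMIs of at least 2 of 5 markers (Gfap, Pax2, Pdgfra, Igfbp5 and S100b), 6 to 10 per library. Cells with fewer of these markers stayed in. Without the astrocyte-marker cells the log2 fold changes were 3.26 for Mthfd2 and 2.02 for Aldh18a1. Both had edgeR adjusted p-values below the threshold (7.61e-09 and 0.00182). In the deep cluster Aldh18a1 had 20.03 and 21.46 CPM in NLGF, and 4.26 and 3.80 CPM in WT. In the shallow cluster its groups overlapped, with 5 and 2 UMIs in NLGF (22.2 and 8.57 CPM), and 2 UMIs in each WT library (15.4 and 9.38 CPM). The median mitochondrial share of UMIs per Müller cell was 7.33% and 7.84% in NLGF, and 8.16% and 9.07% in WT, without overlap, and its part in these differences was not tested. In the deep cluster alone that share was 5.39% and 5.16% in NLGF, and 4.94% and 7.13% in WT, and its part there was not tested either.

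The same genes were then read per cell, as the share of Müller glia with at least 1 UMI. With so few UMIs per cell, such shares follow the summed levels. They cannot tell more carrying cells from more UMIs per carrying cell. Each Müller cell with at least 2000 UMIs was thinned to 2000, which left 215 and 212 cells in the NLGF female and male and 154 and 185 in the WT female and male (median depths before thinning of 9302, 9239, 7541 and 11219 UMIs). Mthfd2 was then seen in 12.1% of cells of the NLGF female (exact 95% interval 8.05 to 17.2) and 8.96% of the NLGF male (5.48 to 13.6), and in 0.649% (WT female) and 1.08% (WT male) of WT cells. Rods thinned in the same way, from median depths of 2329 to 2445.5 UMIs, had Mthfd2 in 1.59% and 0.853% of NLGF cells and in 0.471% and 0.721% of WT cells, and the counting intervals of the WT Müller shares (0.0164% to 3.56% and 0.131% to 3.85%) included the rod shares. How much of the rod share is free RNA was not tested. Without thinning, the Müller shares were 16.6% and 18.9% in NLGF, and 1.95% and 2.36% in WT, and no Müller cell held more than 4 Mthfd2 UMIs.

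Aldh18a1 was seen in 3.26% and 3.77% of thinned NLGF Müller glia. It was seen in 0 of 154 and 0 of 185 thinned WT Müller glia, which allows shares of up to 1.95% and 1.62% by the limit of 3 counts, or 2.37% and 1.97% by the upper ends of the exact intervals, and in 1.19% and 1.63% of NLGF rods and 1.04% and 0.721% of WT rods. Phgdh was seen in 7.91% and 8.49% of NLGF and 5.19% and 4.86% of WT Müller glia, Psat1 in 19.1% and 20.3% of NLGF and 13% and 13.5% of WT, and Psph in 29.3% and 30.7% of NLGF and 20.1% and 26.5% of WT. Rods held Phgdh in at most 0.0992%, Psat1 in at most 0.233% and Psph in 3.71% to 4.50% of cells. For 6 of the 10 members both NLGF shares were above both WT shares, Asns being the sixth (1.86% and 0.943% in NLGF, 0 in both WT libraries, and 0.595% to 1.40% in rods), and at a depth of 1000 UMIs this held for 3 members, Mthfd2, Phgdh and Psph. In a thinning over all genes, a draw of its own, both NLGF shares were above both WT shares for 17.3% of the genes seen and 20.6% of the genes tested in Müller glia at 2000 UMIs, and for 15.5% and 18.4% at 1000 UMIs. In that draw it held for 7 of the 10 members at 2000 UMIs and 4 at 1000 UMIs. At the lower depth of the first draw the groups overlapped for Aldh18a1 (1.48% and 0.388% in NLGF, and 1.08% and 0% in WT) and Psat1 (8.86% and 8.14% in NLGF, and 9.68% and 7.94% in WT).

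**Figure D3:**
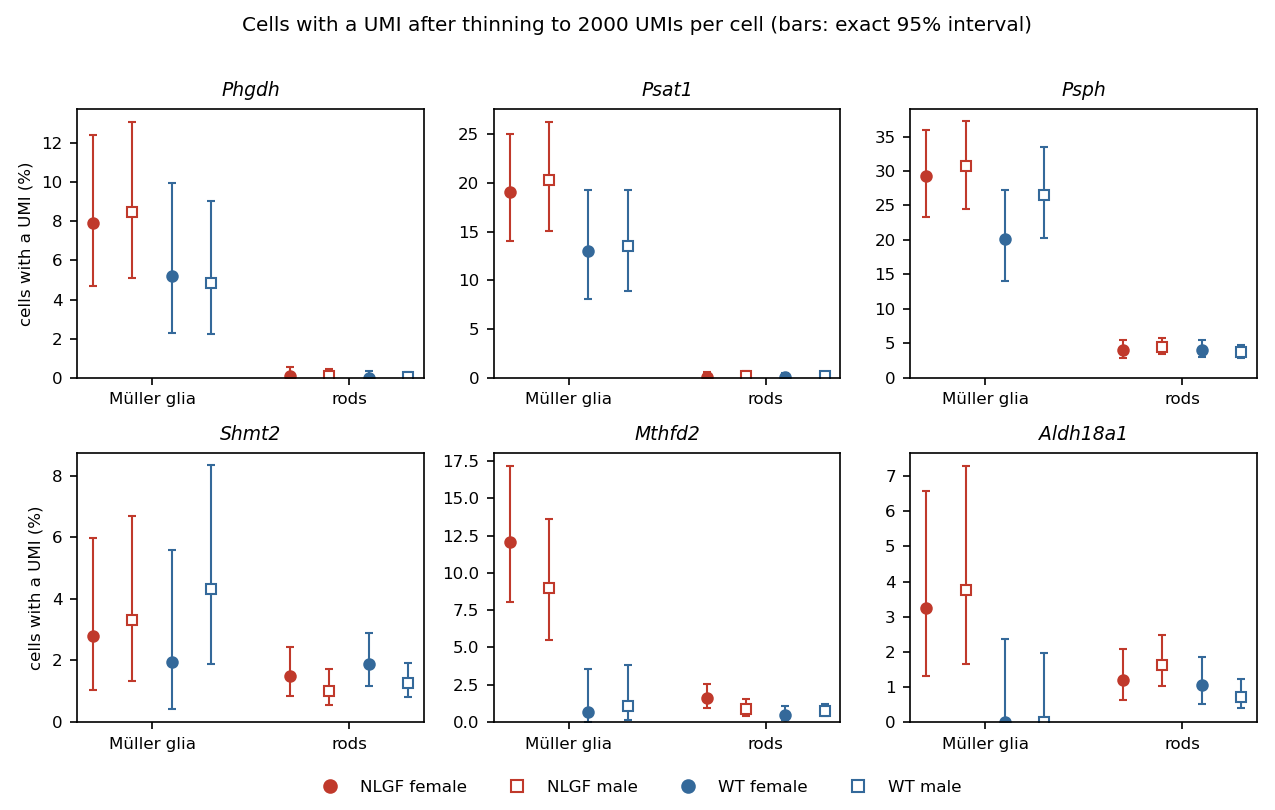
Share of cells with at least 1 UMI of a gene on the y axis (percent, bars are exact 95% intervals for counting error), after thinning each cell to 2000 UMIs, in Müller glia and rods, with NLGF libraries left of WT libraries. Mthfd2 reaches 12.1% and 8.96% in NLGF Müller glia, against 0.649% and 1.08% in WT Müller glia.

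The number of members seen in 1 cell depended on depth. At 2000 UMIs per cell, 5.12% of cells of the NLGF female and 3.77% of the NLGF male had at least 3 of the 10 genes, and no cell of either WT library did. At 1000 UMIs this order was not seen, with 0 and 1 such cell in the NLGF female and male, and 2 and 0 in the WT female and male. At 2000 UMIs no member was seen in 47.0% and 40.6% of NLGF cells, and in 63.6% and 57.8% of WT cells. At 1000 UMIs these shares were 65.7% and 66.3% in NLGF, and 81.7% and 79.4% in WT. Before thinning, cells with an Mthfd2 UMI in the NLGF female also held Phgdh in 34.8% of cases and cells without one in 12.7%, and in the NLGF male in 38.4% and 13.4%. After thinning, those values were 15.4% and 6.88% in the female and 5.26% and 8.81% in the male, from only 4 and 1 cells with both genes. At 1000 UMIs no cell of either animal held both, so these counts are too low to give an order at equal depth.

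In the other classes the same enzymes showed no called difference. The share of all genes called in either direction was 0.00806% in rods, 0% in cones and rod bipolar cells, 0.0454% in cone bipolar cells, 0.00893% in amacrine cells and 0.0960% in endothelial cells. Of the members, 6 were tested in rods, 4 in cones, 4 in rod bipolar cells, 6 in cone bipolar cells, 7 in amacrine cells and 0 in endothelial cells, and none was called with edgeR or with DESeq2, nor had any an unadjusted edgeR p under 0.05. Their log2 fold changes ran from −0.47 to 0.51 and their edgeR adjusted p-values from 0.845 to 0.999.

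Mthfd2 in rods had 7.33 and 5.95 CPM in NLGF and 6.88 and 6.11 CPM in WT, from 50 to 56 UMIs per library, with a log2 fold change of −0.04 ± 0.22 (edgeR adjusted p = 0.975). In amacrine cells it had 13.4 and 6.97 CPM in NLGF, and 8.74 and 4.20 CPM in WT, with a log2 fold change of 0.50 ± 0.46 (edgeR adjusted p = 0.999). The groups overlapped in both classes. Aldh18a1 in rods had 6.38 and 6.67 CPM in NLGF, and 5.20 and 6.33 CPM in WT, and a log2 fold change of 0.10 ± 0.23 (edgeR adjusted p = 0.938).

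Asns was measured best in neurons, and gave no called difference there. In cones it had 28.0 and 40.0 CPM in NLGF, and 25.7 and 36.3 CPM in WT, with both males above both females. Its log2 fold changes were 0.14 ± 0.24 in cones (edgeR adjusted p = 0.963), 0.02 ± 0.24 in amacrine cells (0.999), −0.19 ± 0.25 in rod bipolar cells (0.938) and 0.24 ± 0.24 in cone bipolar cells (0.934). Mthfd1l had 12.4 and 17.2 CPM in NLGF cone bipolar cells, and 9.81 and 11.2 CPM in WT cone bipolar cells. The groups did not overlap, yet its log2 fold change of 0.51 ± 0.31 did not pass the threshold (edgeR adjusted p = 0.845).

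**Figure D4:**
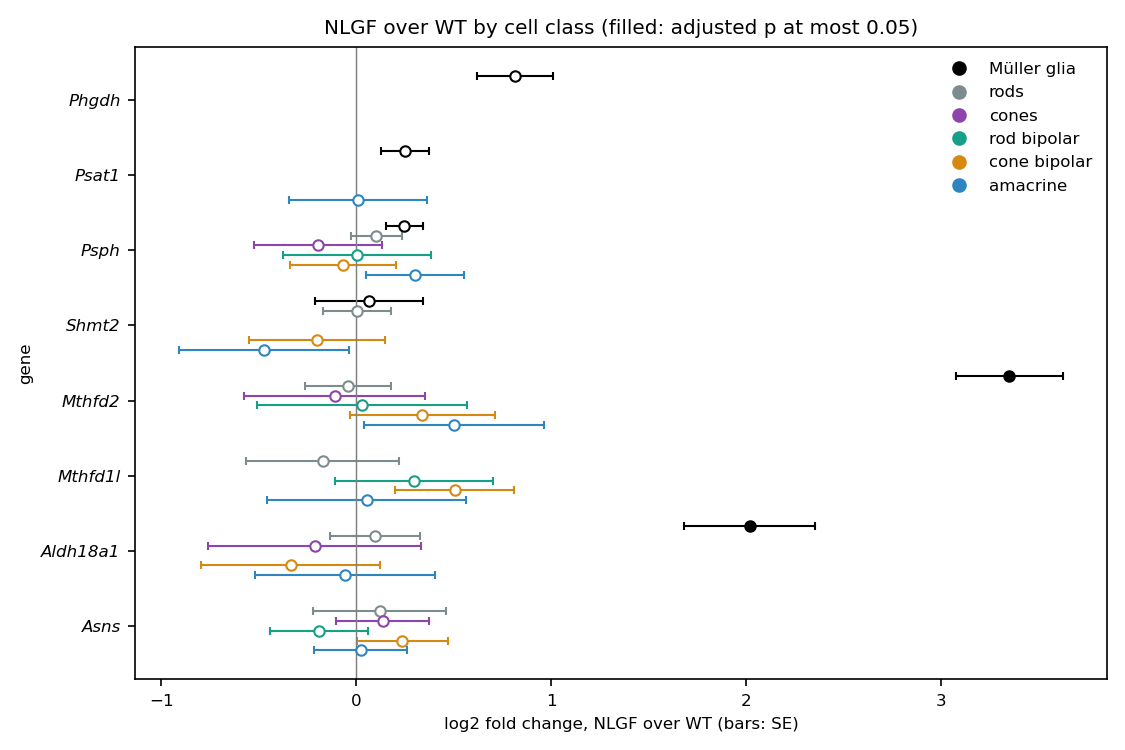
Log2 fold change of NLGF over WT (x axis, bars are SE) for each member (y axis) in the classes in which it was tested, with filled points at an edgeR adjusted p of at most 0.05. Only Mthfd2 (3.35) and Aldh18a1 (2.02) in Müller glia are filled, and the other classes lie between −0.47 and 0.51.

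Whether the change itself differed between classes was tested as a genotype by class interaction, with library as a block. Mthfd2 differed between Müller glia and rods by 3.41 ± 0.41 on the log2 scale (SE, edgeR adjusted p = 1.3e-10). The share of all genes called in that comparison was 0.405%, and 2 of the 8 members tested were called. Against cones Mthfd2 differed by 3.55 ± 0.57 (edgeR adjusted p = 0.00389; 1 of 7 members called, 0.0857% of all genes), against rod bipolar cells by 3.32 ± 0.65 (0.000295; 1 of 8 members, 0.282%), against cone bipolar cells by 3.03 ± 0.52 (4.79e-06; 2 of 8 members, 0.448%) and against amacrine cells by 2.76 ± 0.59 (0.00126; 1 of 8 members, 0.422%). Against endothelial cells none of 6 members was called (0.234% of all genes), with single-digit counts on the endothelial side.

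The size of the Mthfd2 difference stayed between 2.04 and 4.28 under the alternatives against these 5 classes, but its call was not always kept. Against rods it was kept in every setting. Against cones it was lost with DESeq2 (adjusted p = 0.632) and without the WT female (edgeR adjusted p = 0.193) or WT male (0.941), and against rod bipolar cells it was lost without the WT female (0.203) and had no adjusted p with DESeq2. Against cone bipolar cells it was lost with DESeq2 (0.971). Against amacrine cells it was lost with DESeq2 (adjusted p = 1.0) and, with edgeR, without the WT female (0.513) or NLGF male (0.103), with doublets kept (0.14) and with thinned counts (0.172).

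Aldh18a1 also differed between Müller glia and rods, by 1.96 ± 0.47 (edgeR adjusted p = 0.0156), and between Müller glia and cone bipolar cells, by 2.38 ± 0.62 (edgeR adjusted p = 0.0356). The call against rods was lost without the NLGF female (edgeR adjusted p = 0.266), NLGF male (0.211) or WT male (0.438), and the call against cone bipolar cells without the NLGF female (0.118), NLGF male (0.598) or WT male (0.705). Both were also lost with DESeq2 (adjusted p = 1.0) and with thinned counts (edgeR adjusted p = 0.124 and 0.223), and the second with doublets kept (0.051) and without the astrocyte-marker cells (0.0537). Psph differed between these glia and rods by 0.15 ± 0.16 (edgeR adjusted p = 0.895).

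Over all cells of a library, which needs no cell classes, all 10 members were tested and none was called with edgeR (0.0309% of all genes were called), although 4 had an unadjusted p under 0.05, against 9.91% of all genes. Mthfd2 had 13.1 and 11.2 CPM in NLGF, and 6.58 and 6.18 CPM in WT, a log2 fold change of 0.88 ± 0.14 (edgeR adjusted p = 0.233). Phgdh had 5.24 and 5.37 CPM in NLGF, and 2.32 and 2.68 CPM in WT, a log2 fold change of 1.03 ± 0.20 (edgeR adjusted p = 0.313), and Psat1 had a log2 fold change of 0.52 ± 0.12 (edgeR adjusted p = 0.313). In such sums more cells of a class and more RNA per cell cannot be told apart, and Müller glia made up 5.81% and 4.85% of NLGF cells and 3.18% and 4.69% of WT cells. Without a filter on low counts 1.15% of all genes were called over all cells, 3 members among them, namely Phgdh (edgeR adjusted p = 0.0111), Psat1 (0.0402) and Mthfd2 (0.00149).

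**Figure D5:**
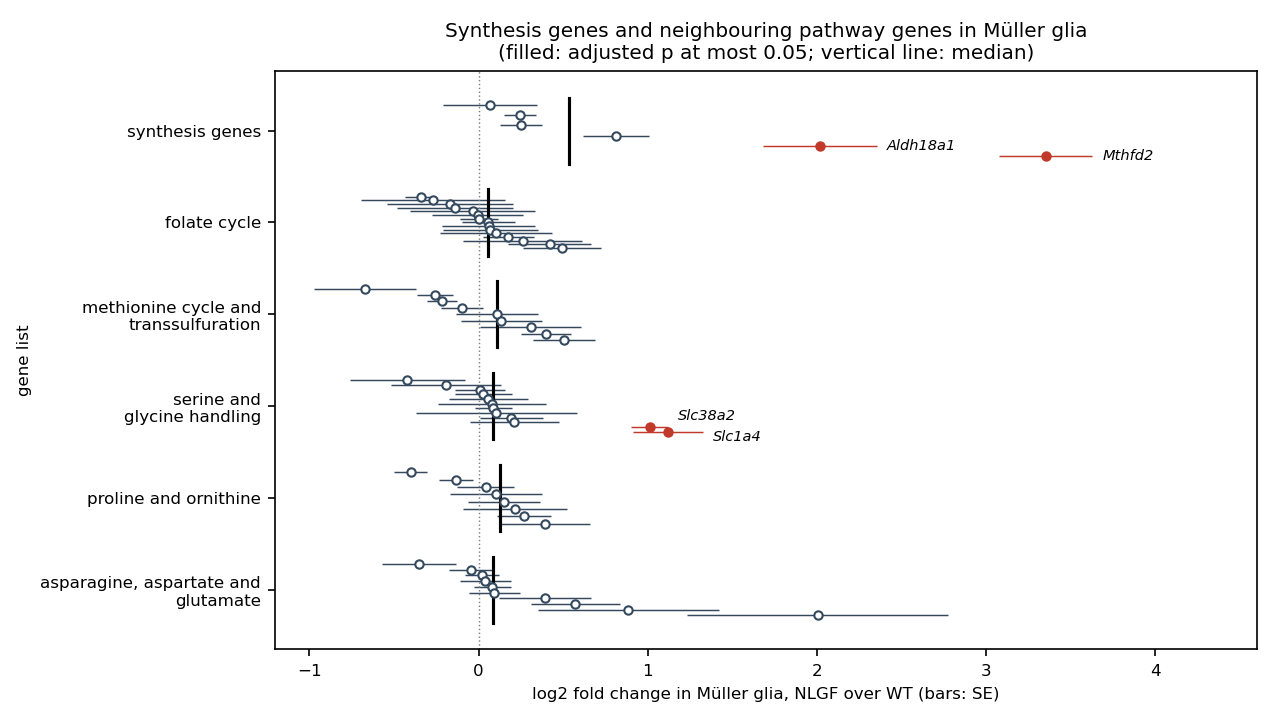
Log2 fold change of NLGF over WT in Müller glia (x axis, bars are SE) for the 6 tested synthesis genes and for the tested genes of 5 neighbouring pathway lists (y axis), with the median of each list as a vertical line and filled points at an edgeR adjusted p of at most 0.05. Aldh18a1, Mthfd2, Slc38a2 and Slc1a4 are filled, and the list medians lie between 0.06 and 0.13, against 0.53 for the synthesis genes. That 0.53 is a description only, since Mthfd2 and Aldh18a1 passed the filter on low counts through their NLGF libraries.

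Neighbouring genes of the same metabolism were read from 5 lists with 73 genes, of which 54 were tested in Müller glia, 2 were higher and 0 were lower. Both were carriers that bring small neutral amino acids into the cell. Slc38a2, a sodium-coupled transporter of alanine, serine, proline and glutamine, had 287 and 352 CPM in NLGF, and 150 and 157 CPM in WT, a log2 fold change of 1.01 ± 0.11 (edgeR adjusted p = 7.65e-05). Slc1a4, which exchanges alanine, serine and cysteine, had 49.7 and 41.5 CPM in NLGF, and 23.0 and 18.5 CPM in WT, a log2 fold change of 1.12 ± 0.21 (edgeR adjusted p = 0.0137). The groups did not overlap for either gene. The Slc1a4 call was lost without the NLGF female (edgeR adjusted p = 0.209), NLGF male (0.0521) or WT male (0.0689), without a filter on low counts (0.0857) and with DESeq2 (0.241), and the Slc38a2 call only in the shallow cluster (0.802).

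The rest of the serine and glycine handling list, which includes glycine cleavage and mitochondrial serine import, held 10 further tested genes without a call, and the median of all 12 was 0.08. In the folate cycle none of 15 tested genes was called (median 0.06), and the smallest unadjusted p-values belonged to Folr1, a folate receptor (log2 fold change −0.34 ± 0.09, edgeR adjusted p = 0.12), and Atic, of purine synthesis (0.49 ± 0.23, edgeR adjusted p = 0.481). In the methionine cycle and transsulfuration none of 9 was called (median 0.11), with Cth, which makes cysteine, at 0.51 ± 0.19 (edgeR adjusted p = 0.315) and Mat2b, a regulator of S-adenosylmethionine synthesis, at 0.40 ± 0.15 (0.318).

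In the proline and ornithine list none of 8 was called (median 0.13). Oat, which links ornithine to the proline precursor, had 184 and 155 CPM in NLGF, and 213 and 222 CPM in WT, a log2 fold change of −0.40 ± 0.10 (edgeR adjusted p = 0.076). With genotype as the only term it passed without the WT female (edgeR adjusted p = 0.00597), with doublets kept (0.024), in cells of at least 2000 UMIs (0.0443) and in the deep cluster (0.0156). Prodh, which starts proline breakdown, had a log2 fold change of 0.27 ± 0.16 (edgeR adjusted p = 0.603). In the asparagine, aspartate and glutamate list none of 10 was called (median 0.09), with Slc25a13, a mitochondrial aspartate carrier, at 2.0 ± 0.77 (edgeR adjusted p = 0.345, from 11 and 10 UMIs in NLGF, and 0 and 4 in WT; 1.31 without the WT female, and 6.22 without the WT male, when the WT count left is 0) and Got1, a cytosolic aminotransferase, at 0.57 ± 0.26 (edgeR adjusted p = 0.461).

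Promoter sequences of all 10 members were found in the RefSeq table for GRCm38.p6, which spans 250 bases before to 50 bases after each listed start. They were searched on both strands for TGATGNAA, the core of the C/EBP-ATF response element, and for CACGTG, the E-box, because members of the list differed in their change. The first was found in 2 members, Pycr1 and Asns, and in 3.97% of all 32851 promoters of the table. The second was found in Aldh18a1 alone, and in 7.15% of all promoters. Pycr1 and Asns had too few UMIs in Müller glia to be tested. Mthfd2 and Phgdh held neither motif, which says only that these letters are not in the window. Only the listed starts were searched, and GENCODE places some starts elsewhere. The GENCODE gene of Mthfd2 begins upstream of its window, and those of Phgdh and Pycr1 begin inside the stretches shown. That of Asns begins at 7693254, upstream of the stretch shown, so the Asns match lies inside the GENCODE gene. The sequences below show the genes that rose, the first gene of the serine chain and the genes with a match, with matches in capitals, each read along its gene's minus strand, as chr6:83317605-83317724 for Mthfd2, chr19:40588464-40588583 for Aldh18a1, chr3:98339970-98340089 for Phgdh and chr11:120643749-120643868 for Pycr1 (bases −120 to −1 from the start), and chr6:7693214-7693243 for Asns (bases −34 to −5).
Mthfd2: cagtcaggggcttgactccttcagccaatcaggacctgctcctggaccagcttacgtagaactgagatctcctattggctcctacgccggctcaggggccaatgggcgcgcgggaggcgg
Aldh18a1: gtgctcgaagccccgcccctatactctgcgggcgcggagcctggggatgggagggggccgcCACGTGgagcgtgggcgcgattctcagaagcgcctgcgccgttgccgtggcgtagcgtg
Phgdh: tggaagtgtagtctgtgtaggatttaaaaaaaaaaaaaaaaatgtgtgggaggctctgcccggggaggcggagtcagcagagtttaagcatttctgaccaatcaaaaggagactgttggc
Pycr1: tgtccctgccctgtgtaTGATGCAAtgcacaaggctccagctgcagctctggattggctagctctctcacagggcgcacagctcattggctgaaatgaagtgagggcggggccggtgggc
Asns: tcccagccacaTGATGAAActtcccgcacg

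Genes whose pattern over the 28 class-by-library sums was most like that of the members are given as a description. The sums share libraries and depth, and the classes differ in many genes at once. The 10 members summed were most like Enoph1 (Pearson r of log2(CPM + 1) = 0.937), Ap4s1 (0.923), Guf1 (0.907), Acsl3 (0.907) and Bmpr1b (0.905), among 9813 genes compared. Phgdh was most like Agt (r = 0.959), which encodes angiotensinogen and is among the 8 astrocyte markers. Next came Lgi4 (0.956), Chrdl1 (0.946), Scara3 (0.946) and Inhba (0.946). Mthfd2, the member that changed most with genotype, was most like Ddit3 (r = 0.817), which encodes the stress-induced transcription factor CHOP, followed by Thumpd3 (0.789), Ralgps1 (0.788), Atp13a2 (0.786) and Fam13b (0.77).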

How the data were processed

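Single-cell libraries of 4 retinas were analysed: NLGF and WT, 1 female and 1 male of each at 30 days. The deposited values are UMI counts of genes in barcodes, not normalized. Per the file headers the matrices come from Cell Ranger 6.1.1, while Cell Ranger 3.1.0, STAR and the mm10 build are listed per the submitters' processing notes. The sources used here do not say whether intronic reads were counted. The files held 35191 barcodes and 85860041 UMIs (8060 barcodes for the NLGF female, 9005 for the NLGF male, 9058 for the WT female and 9068 for the WT male).

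Barcodes passed with 300 or more genes and no more than 20% of UMIs from mitochondrial genes (33329). The Scrublet threshold marked only 2 cells, so the top 6% of scores per library (2002 cells) were removed, which left 31327. Clustering used scanpy 1.11.5 on values scaled to 10000 UMIs, with 2000 variable genes, none of them a member, 30 principal components, 20 neighbours and Leiden resolution 1. A cluster took the class with the highest mean marker z-score among classes with at least 3 detected markers, unless more markers of another class were among its top 10 genes. A minimum z-score (0.8) and lead over the next class (0.5), for clusters with no own marker among their top 10 genes, and a rule that left haemoglobin-led clusters unnamed were set after the data were seen, and 2 clusters stayed unnamed. The endothelial class also held mural markers.

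Counts were summed per library and class and tested with edgeR 4.0.16 (quasi-likelihood test of genotype, with no other term, after filterByExpr and TMM scaling; Benjamini-Hochberg adjustment over all genes of a class, threshold 0.05). The SE of a log2 fold change is its size over the square root of F. Differences between classes were interaction terms with library as a block. CPM values are counts per 1000000 UMIs of the sum, without TMM factors. Thinning drew UMIs at random without replacement once per cell. Intervals are exact (Clopper-Pearson for shares, conditional on the total for ratios of rates) and cover counting error only, and the limit for 0 cells uses 3 counts. The fits were tested on simulated counts. DESeq2 1.42.0 and the other alternatives are given with their effect in the closing section.

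The members and pathway lists were chosen with earlier results of these data known. All 10 members were named whatever their values. From each pathway list the called genes, or otherwise the 2 with the smallest p in Müller glia, were named. Mthfd2l was named in addition, beside Mthfd2. The 5 most alike genes needed a mean CPM of at least 10. Gene positions are from GENCODE M21 on GRCm38, in which 32158 of 32285 gene IDs were found. With 2 libraries for each genotype, edgeR sets the genotype difference against a spread that borrows from all genes tested in the class. That spread is one between these libraries only.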

Additional observations from a re-analysis of the deposited data

Results flagged for a closer look

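The change of Mthfd2 between genotypes differed between Müller glia and 5 other classes by the interaction test. On the log2 scale the difference was 3.41 ± 0.41 against rods (edgeR adjusted p = 1.3e-10), 3.55 ± 0.57 against cones (0.00389), 3.32 ± 0.65 against rod bipolar cells (0.000295), 3.03 ± 0.52 against cone bipolar cells (4.79e-06) and 2.76 ± 0.59 against amacrine cells (0.00126). For Aldh18a1 it was 1.96 ± 0.47 against rods (edgeR adjusted p = 0.0156) and 2.38 ± 0.62 against cone bipolar cells (0.0356). The alternatives that ended these calls stand beside them in the report.

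For some members the log2 ratio of NLGF over WT had one sign in the females and the other in the males. With 1 animal per sex and genotype the difference was not tested, and none of these members was called in the class concerned. Among the members tested in Müller glia it was Shmt2 (female 0.64, male −0.20), and among those with too few UMIs for a test Shmt1 (−1.67 and 0.42) and Pycr1 (−1.48 and 1.004). The ratios for the other classes are those of members tested there. In rods the female and male ratios were 0.091 and −0.037 for Mthfd2, −0.52 and 0.21 for Mthfd1l and −0.71 and 1.08 for Asns. In cones they were 0.081 and −0.379 for Psph, 0.56 and −0.77 for Mthfd2 and −1.38 and 0.92 for Aldh18a1. In rod bipolar cells they were −0.97 and 0.92 for Psph, −1.24 and 0.86 for Mthfd2 and −0.65 and 0.13 for Asns. In cone bipolar cells they were 0.027 and −0.092 for Psph, 0.17 and −0.48 for Shmt2, 0.57 and −0.97 for Aldh18a1 and 0.69 and −0.05 for Asns. In amacrine cells they were −0.14 and 0.35 for Psat1, −1.07 and 0.24 for Shmt2, 0.27 and −0.01 for Mthfd1l, 0.10 and −0.21 for Aldh18a1 and 0.42 and −0.33 for Asns. Over all cells they were −0.026 and 0.768 for Shmt1, 0.039 and −0.069 for Shmt2 and −0.043 and 0.25 for Asns.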

How the results depend on the processing

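Depth and the number of libraries (2 per genotype) limit these results. In Müller glia 4 of the 10 members were below the filter on low counts, and WT Mthfd2 and Aldh18a1 rest on 15 and 16 UMIs. Scaling by DESeq2's size factors changed no count of members called. Of the 2 members called in Müller glia, 1 remained called with DESeq2 (Mthfd2), 1 to 2 when each library was left out in turn (1 without either NLGF library), and 0 were called in the shallow cluster alone, an alternative added after the data were seen. Over all cells 3 members were called without a filter on low counts, against 0 with it. For the difference from rods 1 of 2 members remained called with DESeq2 and 1 with thinned counts, and leaving out single libraries gave 1 to 2. For cones the 1 call became 0 with DESeq2 and 0 to 1 without single libraries, and for rod bipolar cells it became 0 to 1, with 0 called by DESeq2, which gave Mthfd2 no adjusted p. For cone bipolar cells the 2 calls became 0 with DESeq2, 1 with doublets kept, 1 with thinned counts, 1 without astrocyte-marker cells and 1 to 2 without single libraries. For amacrine cells the 1 call became 0 with DESeq2, 0 with doublets kept, 0 with thinned counts and 0 to 1 without single libraries. The 2 calls among the other pathway genes became 1 with DESeq2, 1 without the filter, 0 in the shallow cluster and 1 to 4 without single libraries (4 without the WT female). The cause of these changes was not tested, but fewer genes (3958 against 11146) could be tested in the shallow cluster. Both NLGF shares of cells lay above both WT shares for 6 members at 2000 UMIs and 3 at 1000 UMIs (17.3% and 15.5% of all genes seen). Of 98 single values, none of the 11 called ones changed sign, while 42 of the 87 others did so in at least 1 alternative. Where a library was left out, the lone library of that genotype was assumed to vary like the others.

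Over all genes in Müller glia the number called was 112. It was 47 with DESeq2, 32 without the filter, 250 with doublets kept, 40 and 29 without the NLGF female and male, and 255 and 228 without the WT female and male. It was 154 in cells of at least 2000 UMIs, and 1 in the shallow cluster. Over all cells the number was 5, with 57 called by DESeq2, 272 without the filter, 11 and 15 without the NLGF female and male, 97 and 204 without the WT female and male, and 0 with sex as a block. Over the alternatives it ran from 1 to 914 in rods (1), 0 to 67 in cones (0), 0 to 46 in rod bipolar cells (0), 0 to 59 in cone bipolar cells (5), 1 to 69 in amacrine cells (1) and 3 to 39 in endothelial cells (5), where brackets give the number as reported; the 914 were without the WT female. The labels pair libraries by sex only. With sex as a replicate block 288 genes were called, both members stayed called, and Phgdh (log2 fold change 0.83, edgeR adjusted p = 0.00787) and Oat (−0.41, edgeR adjusted p = 0.00571) passed as well, while no count of members called moved by over 1.5 times in other classes. The deviations of same-sex libraries from their genotype means correlated at 0.025 to 0.354 over genes in the 7 classes.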

Other observations

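A cluster of 594 cells had no marker listed for 1 class only among its top 10 genes. Its rod bipolar score led the cone bipolar score by 0.252, short of the 0.5 required, so it stayed unnamed. Another cluster, of 104 cells, had closer scores (a cone bipolar lead of −0.052). It was named cone bipolar because 1 cone bipolar marker was among its top 10 genes. The cluster of 594 cells entered only the sums over all cells of a library. In this unnamed cluster Mthfd1l had 15.9 and 21.8 CPM in the NLGF female and male, and 17.4 and 17.9 CPM in the WT female and male. In cone bipolar cells, the class with its highest mean among those tested, the libraries ran from 9.81 to 17.2 CPM. In the unnamed cluster Asns had 15.9 and 25.2 CPM in NLGF, and 23.2 and 14.1 CPM in WT. Mthfd2 had 7.94 and 6.87 CPM in NLGF (7 and 6 UMIs), and 0.969 and 4.71 CPM in WT (1 and 5 UMIs). No Phgdh UMI was seen in the cluster.

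Horizontal-like cells, with 9 and 9 cells in NLGF and 24 and 18 in WT, had 66.7 and 51.0 CPM of Asns in NLGF and 56.1 and 70.1 CPM in WT, beside at most 40.0 CPM in any library of a class that was tested. These cells had medians of 25353 to 47744 UMIs.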
